A study of Homo sapiens with 2 samples.

Results

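The genes described here build, cap, cut and restock actin filaments, and 33 of the 39 listed had a usable reading in RNA recovered by immunoprecipitation from 293T cells. They comprise 2 actins, 9 subunits of the Arp2/3 complex, 5 capping protein and twinfilin genes, 10 genes of the cofilin, profilin and thymosin group, 4 tropomyosins, 5 myosin light chains and 4 genes of the transgelin and calponin family. Members were taken by gene symbol, but the list was chosen with earlier results of these data known. Of the 39, 34 had at least 1 probe set that the platform annotation gives to that gene alone. ACTG1 was covered only by probe sets shared with ACTB, and ACTR2, WDR1, CAP1 and TPM3 have no probe set under their symbol in the annotation used here. TPM2 had probe sets but stayed under the detection level, a mean of 0.92 over both arrays on the log2 scale. The whole table names 19775 genes, of which 13150 were detected.

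The samples were 2 arrays with no replicate. On the miR-941 array, 293T cells (a human embryonic kidney line transformed with SV40 large T antigen) had received synthetic miR-941 at 30 nmol/l and the antibody is given as Ago2, the Argonaute protein that carries microRNAs. On the control array the cells had received a scrambled oligonucleotide at 30 nmol/l. That sample is named an Ago2 precipitate in its title, but nonimmune IgG beads are entered as its antibody and its description speaks of mock transfection, so if those beads were used, the effects of oligonucleotide and antibody cannot be told apart. Both cultures were transfected transiently and no input RNA was analysed here, so recovery by the beads cannot be separated from the amount of mRNA in the cells, and fewer cells from less RNA per cell cannot be told apart either. Each probe set has an RMA value that was read here as log2, and the array medians were 0.98 (miR-941) and 0.92 (control). Every difference below is the log2 value on the miR-941 array minus that on the control array, it compares these 2 hybridisations only, and it has no test.

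Actin monomers assemble into filaments with a fast-growing and a slow-growing end. The Arp2/3 complex starts a new filament as a branch on the side of an old one, capping protein closes the fast end, cofilins sever old filaments, and profilins and thymosins hold the monomers that are released. Tropomyosins lie along the filament and decide which partners can bind it, and myosin light chains set the activity of the motor that pulls on it. Many genes of this set, actins above all, are known targets of the transcription factor SRF, which binds a sequence called the CArG box. MicroRNAs pair with mRNAs mainly through their bases 2 to 8, the seed.

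The added microRNA is shown first because its seed defines the site the experiment was built around. RefSeq (GRCh38.p14) holds 5 MIR941 copies with 1 identical mature sequence, the first of them at chr20:63919495-63919517 on the plus strand, with the seed in capitals.
miR-941: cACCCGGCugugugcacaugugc
A fully paired site for this seed reads GCCGGGU in an mRNA. The mRNAs of the members were not searched for it, since transcript sequences were not used here.

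Promoters are shown for the members with a CArG box, the motif that SRF binds. Genes were not chosen by this motif, but many genes of this set are known SRF targets. The share with a box is therefore not independent of the choice of genes. Windows of 300 bases around the RefSeq start were available for 34 members, namely all but ACTB, ARPC1B, MYL9, PFN2 and TAGLN. A CArG box, whose pattern covers both strands at once, was found in 3 of the 34 (8.82%), against 438 of 27305 genes with such a window (1.60%). The 250 bases before the start follow for these 3, with the box in capitals, for ACTG1 at chr17:81512800-81513049 on the minus strand, CNN2 at chr19:1026358-1026607 on the plus strand and TPM4 at chr19:16067288-16067537 on the plus strand.
ACTG1: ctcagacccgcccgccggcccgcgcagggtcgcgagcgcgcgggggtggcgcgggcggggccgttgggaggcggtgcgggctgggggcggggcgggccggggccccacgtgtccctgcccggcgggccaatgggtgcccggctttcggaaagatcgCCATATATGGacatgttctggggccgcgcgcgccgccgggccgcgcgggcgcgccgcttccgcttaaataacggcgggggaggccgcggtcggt
CNN2: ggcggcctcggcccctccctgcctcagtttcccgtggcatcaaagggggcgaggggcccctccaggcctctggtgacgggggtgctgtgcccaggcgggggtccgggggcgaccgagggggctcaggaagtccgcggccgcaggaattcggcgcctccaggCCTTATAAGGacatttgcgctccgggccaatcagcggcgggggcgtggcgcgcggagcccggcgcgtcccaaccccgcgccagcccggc
TPM4: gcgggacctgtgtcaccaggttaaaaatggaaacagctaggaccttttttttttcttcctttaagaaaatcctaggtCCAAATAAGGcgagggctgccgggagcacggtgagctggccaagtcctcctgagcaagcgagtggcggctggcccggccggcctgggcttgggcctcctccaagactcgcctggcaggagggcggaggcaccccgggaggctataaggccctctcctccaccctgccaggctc
The boxes read CCATATATGG, CCTTATAAGG and CCAAATAAGG. They begin 94, 89 and 173 bases before the start. A match describes these letters only. Of the 2 measured genes with a box, CNN2 was higher (0.26) and TPM4 lower (-0.53) on the miR-941 array with the brightest probe set. CNN2 had 1 detected probe set and the 4 of TPM4 ran from -0.58 to 0.52, so neither direction is secure.

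Small actin regulators read nearly alike on both arrays. Of the 33 detected members, 18 were higher on the miR-941 array (54.5%), 12 lower (36.4%) and 3 equal, where 46.3% of all detected genes were higher and 42.4% lower. The median difference was 0.06 for the members and 0.00 for all 13150 genes. No member reached 2-fold in either direction, which 0.517% of all detected genes did, and none reached 1.5-fold, against 5.82%. Their differences ran from -0.53 (TPM4, 1.44-fold lower) to 0.48 (COTL1, 1.40-fold higher), with an SD over genes of 0.21 for members and 0.30 for all detected genes.

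Bright probe sets vary less between these arrays than dim ones, and the members were bright, with a median level of 6.46 where all detected genes had 4.37. Among the 29 members above the 75th percentile of level, 15 were higher and 12 lower, with a median difference of 0.03 and an SD of 0.21. The 8086 genes above that percentile had a median of 0.00 and an SD of 0.26, and 2.94% of them reached 1.5-fold. For 18 members with 2 or more detected probe sets, the 2 brightest gave a within-gene SD of 0.15 in their differences, and over 6106 genes of the table this SD was 0.29. Restricted to probe sets above the 75th percentile of level, it was 0.14 over 14 members and 0.23 over 2900 genes. Over all 63 detected probe sets of the members 33 were higher and 26 lower, where the shares over all detected probe sets were 44.2% and 43.4%. Of the 18 genes, 6 had every detected probe set higher, 4 had every one lower and 8 had probe sets that did not all go one way. The matching shares over all genes are not given here, so these counts cannot be called high or low. Probe sets of a gene share 1 hybridisation per array and are not replicates.

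**Figure D1:**
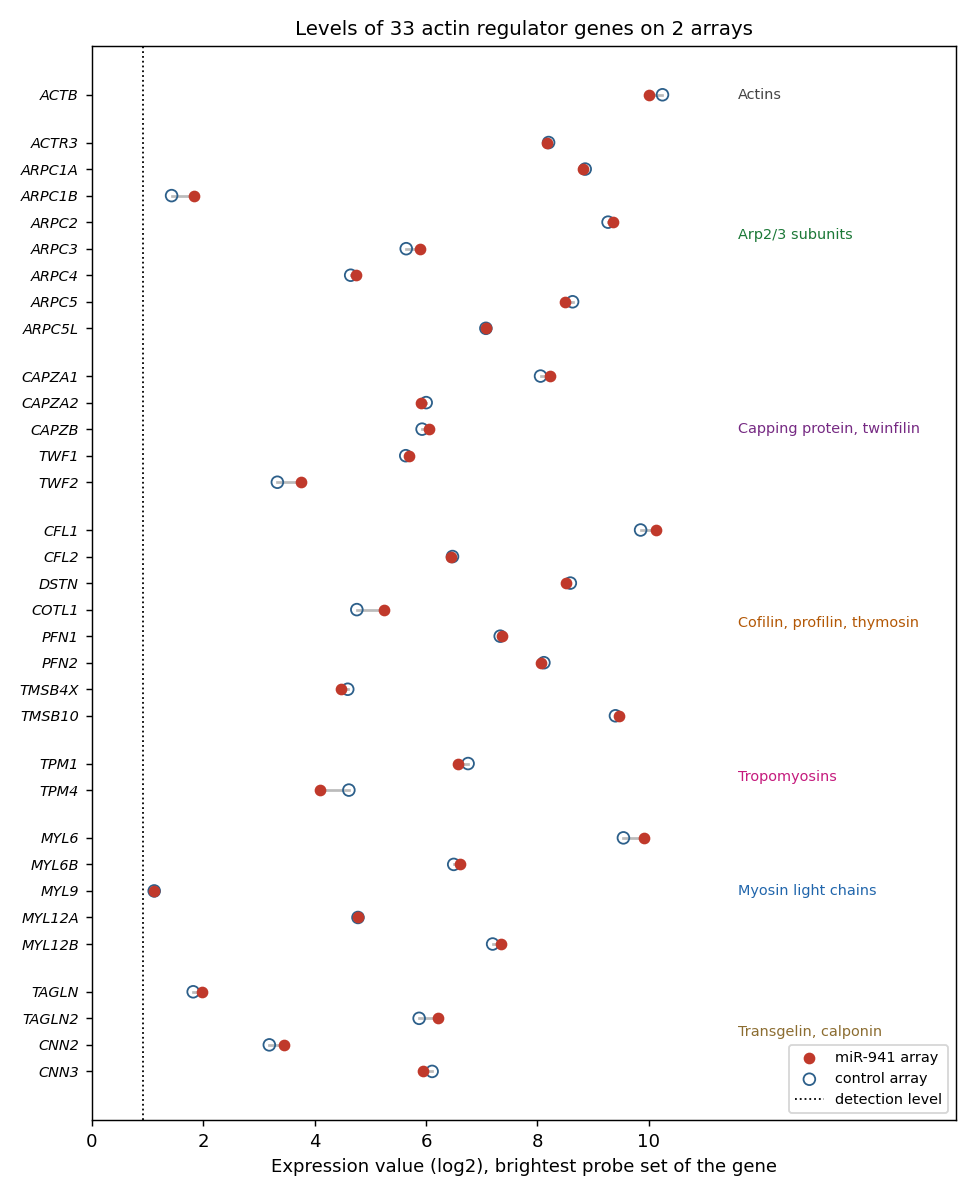
Expression value (log2, horizontal axis) of the brightest probe set of each of the 33 detected members, on the miR-941 array (filled red) and the control array (open blue), ordered down the page by role, with the detection level as a dotted line. Both points of a gene lie close together, at most 0.53 apart (TPM4); levels of different genes come from different probes and are not to be compared with each other.

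Actin mRNA was read in several ways, and these did not all go in the same direction. ACTB, which encodes the beta actin of nonmuscle cells, read 10.004 on the miR-941 array and 10.24 on the control array with its brightest probe set, a difference of -0.24. All 3 regular ACTB probe sets were lower on the miR-941 array, between -0.24 and -0.20. All 3 are of the _x_at type, whose probes can also bind related transcripts. The 9 probe sets that the annotation shares between ACTB and ACTG1, which encodes the gamma actin, read 10.54 to 11.72 on the miR-941 array and 10.60 to 11.61 on the control array. Of these 9, 7 were higher and 2 lower, from -0.18 to 0.18 with a median of 0.09, so the shared readings were centred on the other side of 0 from those of ACTB alone.

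The difference also changed along the ACTB mRNA. Affymetrix places control probe sets at the 5' end, the middle and the 3' end of this mRNA, and the differences were -0.66, -0.37 and -0.04. The 3' reading exceeded the 5' reading by 3.32 on the miR-941 array and by 2.71 on the control array, and for GAPDH, a glycolytic enzyme with the same kind of controls, by 1.42 and 1.18. In both mRNAs the gap was wider on the miR-941 array. The differences of the 3 regular ACTB probe sets lay between those of the middle and the 3' control. RNA integrity was not measured otherwise, and its part in the other members' differences was not tested. The 18 Affymetrix hybridisation controls had a median difference of 0.10, from -0.10 to 0.17.

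**Figure D2:**
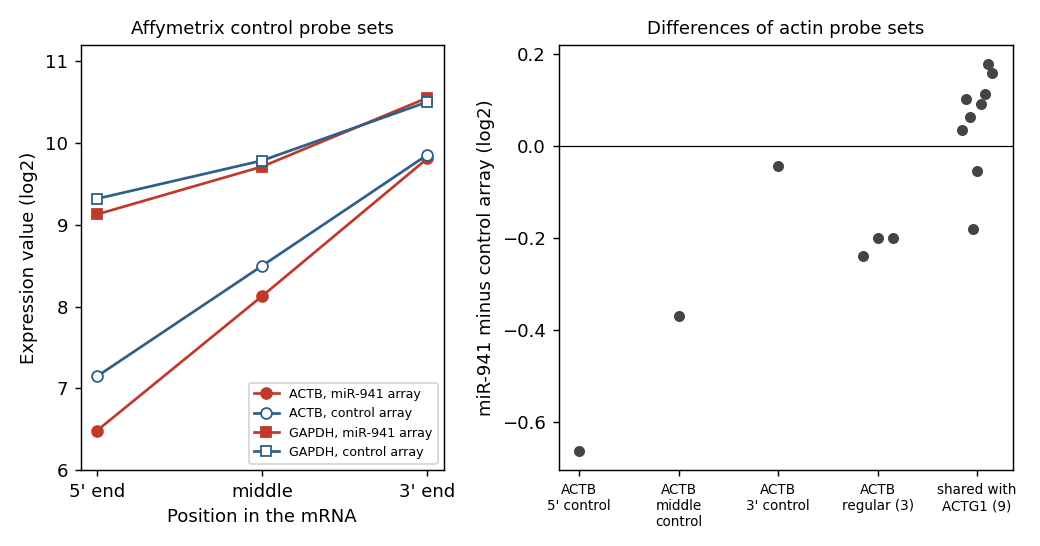
Left, expression value (log2) of the Affymetrix control probe sets for ACTB (circles) and GAPDH (squares) by position in the mRNA, on the miR-941 array (red, filled) and the control array (blue, open). Right, difference of each actin probe set (log2, miR-941 array minus control array): the ACTB controls go from -0.66 at the 5' end to -0.04 at the 3' end, the 3 regular ACTB probe sets lie near -0.2, and 7 of the 9 shared with ACTG1 lie above 0.

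Genes for the Arp2/3 complex had a median difference of 0.04, with 4 of 8 detected subunits higher, 3 lower and 1 equal. The actin-related subunit ACTR3 read 8.18 on the miR-941 array and 8.20 on the control array (-0.02). Its 4 detected probe sets were split, 2 higher and 2 lower, from -0.30 to 0.23. ARPC2, which with ARPC4 forms the core that clamps the mother filament, read 9.35 on the miR-941 array and 9.27 on the control array (0.09), with 2 of 3 probe sets higher. ARPC4 read 4.74 on the miR-941 array and 4.65 on the control array (0.09), higher on both of its own probe sets. For ACTR3 and ARPC2 the differences of single probe sets lay on both sides of 0.

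The remaining subunits come in pairs of isoforms or as single genes. The small subunit ARPC3 read 5.90 on the miR-941 array and 5.64 on the control array, a difference of 0.25 on 1 probe set. ARPC1A read 8.82 on the miR-941 array and 8.86 on the control array (-0.04). Its alternative ARPC1B, an isoform typical of blood cells, read 1.84 on the miR-941 array and 1.43 on the control array (0.40). The ARPC1B readings were not far above the detection level, the range where differences scatter most over all genes, and its difference was the largest of the complex. ARPC5 read 8.49 on the miR-941 array and 8.63 on the control array, and both of its detected probe sets were lower (-0.14 and -0.29). Its isoform ARPC5L had exactly the same reading, 7.07, on both arrays with its brightest probe set, and its other 3 ran from -0.15 to 0.16.

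Capping protein and twinfilin genes were higher in 4 of 5 cases, with a median of 0.12. CAPZA1 and CAPZA2 encode alternative alpha subunits of capping protein. CAPZA1 read 8.23 on the miR-941 array and 8.05 on the control array (0.18), on 1 detected probe set. CAPZA2 read 5.90 on the miR-941 array and 6.00 on the control array (-0.10), and its second detected probe set gave 5.54 on both. The alpha subunit genes thus differed from 0 in opposite directions by small amounts. CAPZB, the gene of the common beta subunit, read 6.05 on the miR-941 array and 5.93 on the control array (0.12), with probe sets from -0.17 to 0.19. Twinfilins bind actin monomers and capping protein. TWF1 read 5.69 on the miR-941 array and 5.64 on the control array (0.06), and TWF2 read 3.76 on the miR-941 array and 3.33 on the control array (0.42), each on 1 detected probe set.

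Among the genes that sever filaments and bind monomers, 4 of 8 detected were higher and 4 lower, with a median of 0.0035. CFL1, the main nonmuscle cofilin, read 10.12 on the miR-941 array and 9.85 on the control array, a difference of 0.27. Its second detected probe set was also higher, at 0.03. CFL2, the cofilin typical of muscle, read 6.45 on the miR-941 array and 6.47 on the control array (-0.02). All 3 detected CFL2 probe sets were lower, and the dimmest of them read 2.87 on the miR-941 array and 3.55 on the control array (-0.69). DSTN, which encodes the related severing protein destrin (ADF), read 8.51 on the miR-941 array and 8.59 on the control array (-0.08), with -0.38 on its second probe set. Within the cofilin family, then, every detected CFL1 probe set was higher on the miR-941 array, and every detected CFL2 and DSTN probe set was lower. The second CFL1 probe set and the brightest of CFL2 and DSTN differed by less than the members' within-gene SD of 0.15. How often all probe sets of a gene share a direction over all genes is not given here, so these signs are not a family pattern.

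COTL1, a coactosin-like filament binder with a cofilin-type fold, had the largest positive difference of all members. It read 5.24 on the miR-941 array and 4.76 on the control array (0.48), but its second detected probe set gave only 0.13. Profilins, which feed monomers to growing ends, hardly differed: PFN1 read 7.36 on the miR-941 array and 7.33 on the control array (0.03), and PFN2 8.07 on the miR-941 array and 8.12 on the control array (-0.05). Of the beta-thymosins, which hold monomers in reserve, TMSB10 read 9.46 on the miR-941 array and 9.40 on the control array (0.07). TMSB4X read 4.48 on the miR-941 array and 4.60 on the control array (-0.11). Each of these profilin and thymosin genes rested on 1 probe set, and their differences ran from -0.11 to 0.07.

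Tropomyosins were the only role with 2 or more detected genes in which each brightest probe set was lower, but it held just 2 such genes and their probe sets disagreed. TPM4 read 4.09 on the miR-941 array and 4.62 on the control array, a difference of -0.53, the most negative of the members. A further probe set also differed by -0.58, while the remaining ones gave -0.04 and 0.52. The one at 0.52 read 1.65 on the miR-941 array and 1.13 on the control array, near the detection level. The one at -0.58 was dim as well, at 1.88 on the miR-941 array and 2.45 on the control array. So was the one at -0.04, at 2.15 on the miR-941 array and 2.20 on the control array. TPM1 read 6.57 on the miR-941 array and 6.75 on the control array (-0.18), with -0.09 and -0.22 on its next brightest probe sets.

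A single probe set passed 2-fold among the 63 detected probe sets of the members, where 0.845% of the 23317 detected probe sets of the table did. It was the dimmest detected probe set of TPM1, at 2.14 on the miR-941 array and 0.96 on the control array, a difference of 1.18. The control reading lies at the detection level and the other 3 detected TPM1 probe sets were lower. TPM1 mRNA is known to exist in many splice forms with different ends, and which form each probe set reads was not determined here. TPM2, a tropomyosin abundant in muscle, had a brightest mean of 0.87, just under the detection level, whereas the dimmest member above it, MYL9, had 1.12.

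**Figure D3:**
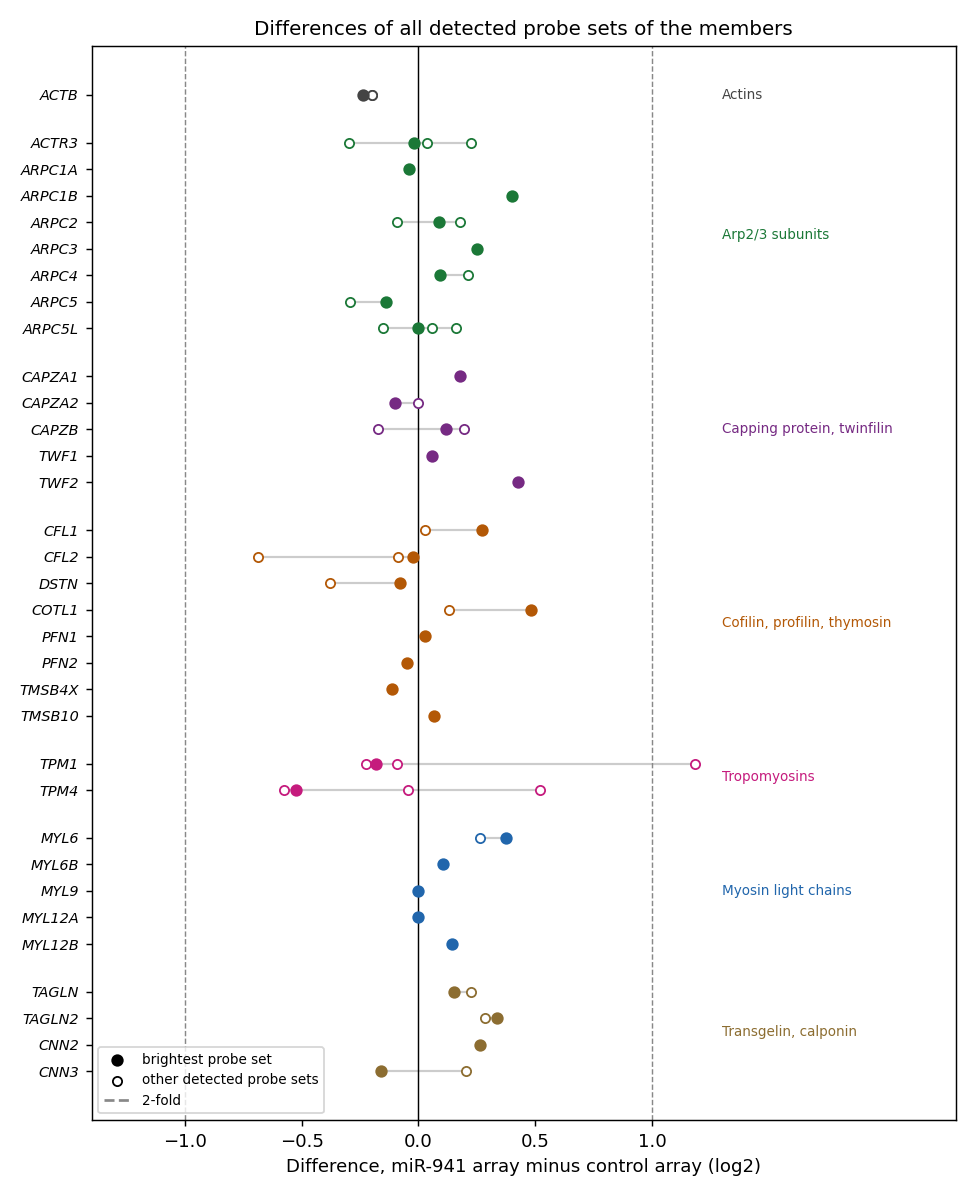
Difference (log2, miR-941 array minus control array, horizontal axis) of all 63 detected probe sets of the 33 members, with the brightest probe set of each gene filled and the others open, coloured by role; dashed lines mark 2-fold. One TPM1 probe set lies beyond 2-fold at 1.18 while its other 3 lie below 0, and the TPM4 probe sets spread from -0.58 to 0.52.

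Myosin light chain genes were higher in 3 of 5 cases and equal in 2, with a median of 0.10. MYL6, the essential light chain of nonmuscle and smooth muscle myosin, read 9.92 on the miR-941 array and 9.54 on the control array, a difference of 0.38. Its second probe set, close to the detection level, gave 0.26. MYL6B, the neighbouring gene for a related essential chain, read 6.60 on the miR-941 array and 6.50 on the control array (0.10). Both essential chain genes were thus higher on the miR-941 array, MYL6 by more.

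The regulatory light chains are switched on by phosphorylation. MYL12B read 7.34 on the miR-941 array and 7.20 on the control array (0.14), and its neighbour MYL12A read 4.78 on both arrays. A probe set shared by these genes read 6.91 on the miR-941 array and 7.14 on the control array (-0.22), opposite to MYL12B alone. MYL9, the smooth muscle form, read 1.12 on both arrays, a value that 301 probe sets had on the miR-941 array and 276 on the control array. An equal reading of this kind lies near the floor and does not show an equal amount of mRNA.

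Transgelins and calponins, which bind along filaments and are best known from smooth muscle, had a median of 0.21 with 3 of 4 higher. TAGLN2, the widely expressed transgelin, read 6.21 on the miR-941 array and 5.88 on the control array (0.34), with 0.28 on its second probe set. TAGLN read 1.98 on the miR-941 array and 1.82 on the control array (0.15), with 0.23 on the other detected probe set. Both transgelins were higher on all detected probe sets, TAGLN close to the detection level. CNN2, a nonmuscle calponin, read 3.45 on the miR-941 array and 3.19 on the control array, a difference of 0.26 on 1 probe set. That same difference recurred in 127 detected probe sets of the table, the second of MYL6 among them, so it is a repeated step of the deposited values. CNN3, a calponin known from brain and other nonmuscle tissue, read 5.95 on the miR-941 array and 6.11 on the control array (-0.16), while its second probe set gave 0.20.

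Because TAGLN, MYL9, TPM2 and CFL2 are muscle genes, muscle markers were read on the same arrays. Of 15 muscle markers with a probe set, 10 were above the detection level, and these read 0.89 to 2.26 on the miR-941 array and 0.98 to 2.79 on the control array. The linear values of all 15 summed to 35.6 on the miR-941 array and 38.8 on the control array. CNN1, MYOCD, ACTA1, MYH7 and MYL1 were below the detection level, and none of the markers reached 2-fold. Among blood markers PTPRC, CD3E and CORO1A were below it, while LCP1 read 8.005 on the miR-941 array and 8.66 on the control array and HBB read 7.54 on the miR-941 array and 6.95 on the control array. These 5 blood markers summed to 448 on the miR-941 array and 532 on the control array. LCP1 (-0.65) and HBB (0.59) differed in opposite directions, so the lower sum does not describe blood markers as a set. Single HBB probe sets ranged from -0.73 to 0.76. Left out of the sum were the 6 probe sets shared by the alpha globin genes HBA1 and HBA2, all higher on the miR-941 array (0.83 to 1.04). Of 7 genes known from HEK293 cells, the line that 293T derives from, 6 were detected, 3 of them higher and 3 lower. NEFL (0.39) and PAX2 (0.37) had the highest differences and INA (-0.59) and NEFM (-0.26) the lowest. PAX2 read 1.23 on the miR-941 array and 0.86 on the control array, where it was below the detection level. KRT8 was below the detection level. Large T antigen itself was not measured.

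**Figure D4:**
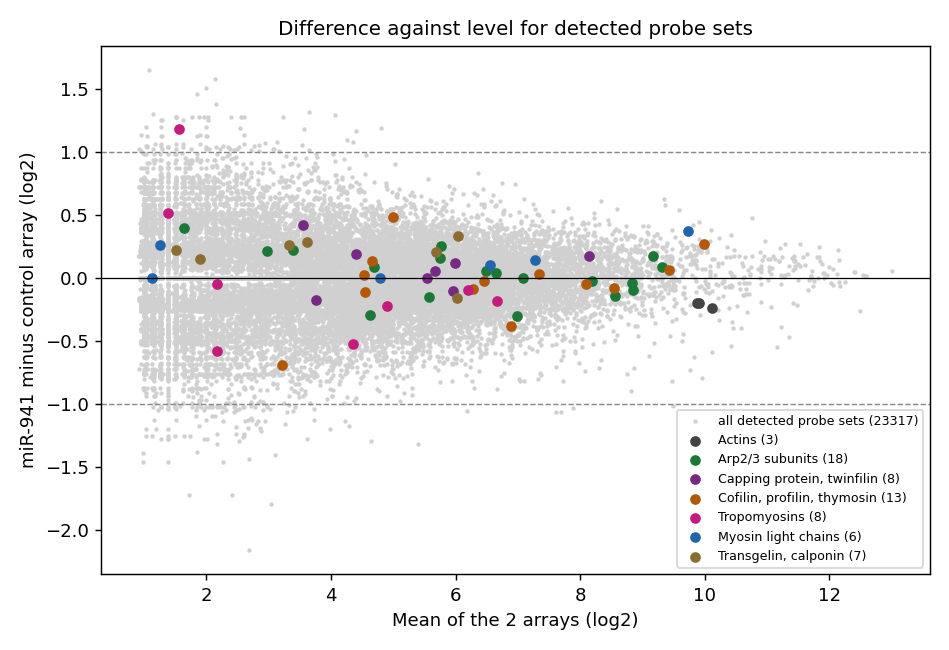
Difference (log2, miR-941 array minus control array) against the mean of both arrays (log2) for the 23317 detected probe sets of the table (grey) and the 63 of the members, coloured by role; dashed lines mark 2-fold. Scatter is wider at low levels, where the TPM1 probe set at 1.18 lies, and the members lie inside the grey cloud.

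Genes whose proteins direct the same machinery were looked at in 5 further lists, with 71 genes detected of 81 listed. Their median difference was 0.00, with 28 higher (39.4%), 35 lower (49.3%) and 8 equal. None reached 2-fold on its brightest probe set, which 0.517% of all detected genes did. Of their 146 detected probe sets 2 did, the dimmer ones of GSN (-1.16) and CORO2A (1.03), where 0.845% of all detected probe sets did. At 1.5-fold 3 were higher and 5 lower. One of the 3, CORO2B, was below the detection level on the control array, and with low values set to that level it had 0.57 and 2 genes were 1.5-fold higher. The background at 1.5-fold was 2.94% of detected genes higher and 2.87% lower.

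Activators of the Arp2/3 complex, such as the WAVE and WASH complexes, were split, 10 higher and 9 lower of 20, with a median of 0.03. WASHC3 (0.39) and BRK1 (0.34), small subunits of the WASH and WAVE complexes, had the largest positive differences, and the 2 BRK1 probe sets went in opposite directions. The WAVE subunit ABI1 and the adaptor NCK2 had -0.34 each, with 1 of 2 ABI1 probe sets higher. Among 8 brakes of the complex and coronins, 4 were higher and 4 lower, with a median of -0.02. CORO2B read 1.49 on the miR-941 array and 0.81 on the control array (0.68), and CORO7 1.46 on the miR-941 array and 2.19 on the control array (-0.73), all near the detection level. CORO1C, a widely expressed coronin, had 0.40, and PICK1 -0.42.

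Control of cofilin and severing by gelsolin relatives was split as well, with 6 of 15 genes higher, 5 lower and a median of 0.00. The cofilin phosphatase genes SSH2 and SSH1 had the most negative differences. SSH2 read 6.63 on the miR-941 array and 7.45 on the control array (-0.82), but its second detected probe set was equal on both arrays. SSH1 had -0.62, with 1 of its 3 probe sets higher. GSN, which encodes the severing protein gelsolin, read 8.37 on the miR-941 array and 8.82 on the control array (-0.45), lower on both detected probe sets. The kinases LIMK2, which phosphorylates cofilin, and PAK2, which acts upstream, had 0.45 and 0.28, and both LIMK2 probe sets were higher. Of 16 genes of filament ends and bundlers 6 were higher and 7 lower, and their median was 0.00. EVL (0.38) and PLS1 (0.29) were at the upper end, and TMOD1 (-0.67) and ACTN4 (-0.55) at the lower end, with EVL and TMOD1 each split between 2 probe sets.

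Genes that control the myosin light chains were lower in 10 of 12 cases (83.3%), with a median of -0.23, where 42.4% of all detected genes were lower. None of the 5 light chain genes was lower on its brightest probe set, but 2 were equal, MYL9 among them near the floor. The probe set shared by MYL12A and MYL12B was lower (-0.22), so the light chain readings did not all go one way. MYLK, the kinase that phosphorylates the regulatory light chains, read 6.47 on the miR-941 array and 6.72 on the control array (-0.25), lower on both detected probe sets. PPP1R12B, a subunit of the phosphatase that reverses this step, read 2.88 on the miR-941 array and 2.28 on the control array (0.59) on 1 probe set, and was 1 of the 2 genes that were higher. The other phosphatase genes of the list were lower: PPP1R12C had -0.33 on 1 probe set, PPP1R12A -0.13 with all 3 probe sets lower, and PPP1CB -0.10 with 3 of 4 lower. Except for PPP1R12B, these genes were singled out after their values were seen, and no test of the difference between these lists and the members was made.

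**Figure D5:**
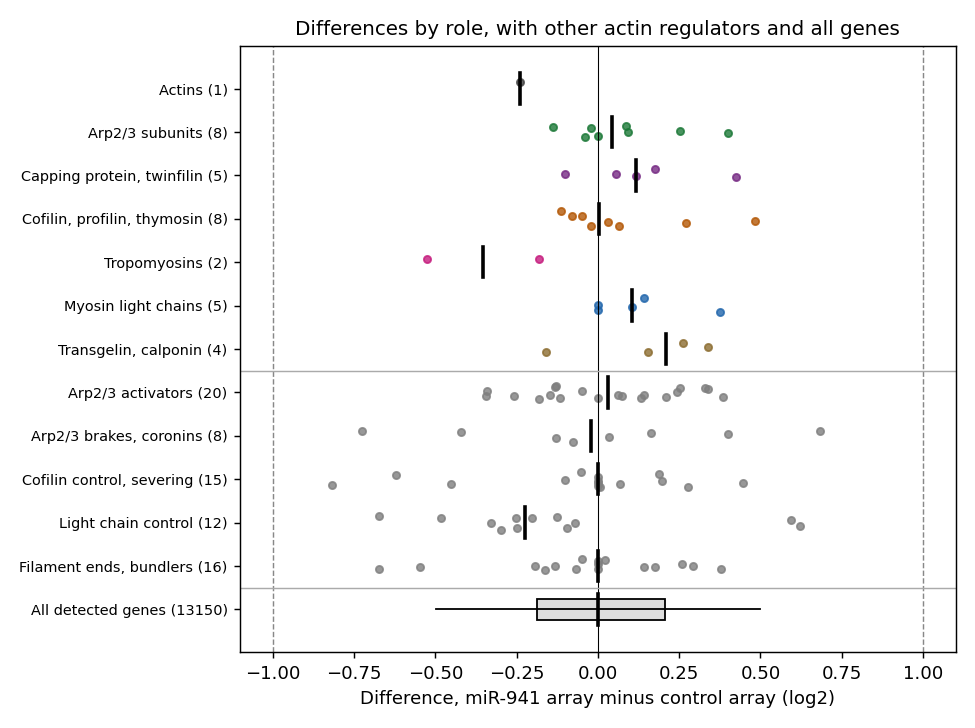
Difference (log2, miR-941 array minus control array) of each detected gene by role, members in colour above and other actin regulators in grey below, with the number of genes in brackets and the median as a black bar. The lowest row gives all detected genes as median, quartiles (box) and 5th to 95th percentile (line); the members lie between -0.53 and 0.48, and 10 of 12 genes that control light chains lie below 0.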

How the data were processed

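Expression values were made by the authors with an R package for RMA, as the series' design text states. RMA, affy and MAS5 are named in the submitters' processing notes without versions. The deposited values were taken as log2 values, since they reach 13.7; neither log base nor centring is given in the sources used here. Of 54675 probe sets, 41091 had 1 gene symbol in the platform annotation, 1801 several, 11721 none there, and 62 were Affymetrix controls. Entrez identifiers brought the symbols up to date with RefSeq (GRCh38.p14). A gene was read from its brightest probe set and detected when the mean of both arrays exceeded 0.92, the median over all probe sets other than controls.

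Groups follow the transfected oligonucleotide. With 1 array per group no test or p-value was possible, and the number of arrays limits the precision. Members and gene lists were chosen with earlier results of these data known. Named outside the members are the 2 highest and 2 lowest genes of each list, with additions stated; some of them are not reported here. Calculations used Python 3.11.15, pandas 2.3.3 and statsmodels 0.14.6, and were tested on simulated data.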

Additional observations from a re-analysis of the deposited data

Results flagged for a closer look

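Probe sets shared by several genes were not used for gene values, and among those that include a listed gene 1 passed 2-fold, with the higher reading on the miR-941 array. It is shared by HBA1 and HBA2, the alpha globin genes, and read 7.11 on the miR-941 array and 6.07 on the control array, a difference of 1.04. All 6 probe sets shared by these genes were higher, from 0.83 to 1.04, and all 6 are of the _x_at type.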

How the results depend on the processing

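No paired analysis was possible because there was a single array on each side, and none could be left out. Alternatives were the mean or the median over probe sets, leaving out _x_at and _s_at probe sets, no level filter, the 75th percentile of level, low values set to the detection level, a loess trend removed (span 0.3), the median of all genes subtracted, and 1.5-fold in place of 2-fold. A median was taken as moved when it shifted by more than the within-gene SD of 0.29 divided by the square root of its number of genes. Of 128 recomputed medians and counts, 119 did not move, but part of these could not. The median of all genes was 0, so subtracting it changed nothing. Setting low values to the detection level, or using no level filter, changed the value of no detected member. The 119 is therefore not a measure of how stable the results are. With no _x_at and _s_at probe sets 24 members remained, of which 16 were higher and 5 lower, with a median of 0.10. The median over all genes was 0.00 there. Of these 24 members 1 (TPM1, 1.18) passed 2-fold, and the shares over all genes in this setting are not given here. The medians in that setting were 0.13 for the cofilin, profilin and thymosin group (3 genes), 0.30 for tropomyosins and 0.19 for cofilin control. With the mean over probe sets the medians were 0.0066 for tropomyosins and 0.13 for Arp2/3 brakes and coronins. With the median over probe sets the brakes and coronins had 0.11. Above the 75th percentile of level the Arp2/3 activators had -0.0477. The tropomyosin direction therefore depends on the probe sets taken; TPM1 itself had 0.17 and TPM4 -0.16 with the mean over probe sets. Removing the loess trend changed no member by more than 0.05 and turned no sign, but gave a direction to the 3 equal members, so that 19 were higher and 14 lower.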

Other observations

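Of the members' 63 detected probe sets 4 (6.35%) read exactly the same on both arrays, and of all 23317 detected probe sets 12.4% did. These 4 were not all dim, since they include ARPC5L at 7.07, CAPZA2 at 5.54 and MYL12A at 4.78 as well as MYL9 at 1.12. The cause was not tested.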
